A study of Salmo salar with 6 samples.

Results

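The brightest head kidney (HK) transcripts of Atlantic salmon (Salmo salar) whose genes are known only by a locus number were described under a control and an AQUOLIVE diet. Of 42386 non-control probes on the array, 25420 matched a RefSeq record of the salmon gene table, and 17365 of these belonged to a gene listed only as LOC followed by a number. The remaining 8055 had a gene symbol. Probes of locus-number genes that were well above background on all 6 arrays numbered 7298. These were ranked by their processed signal, the background-subtracted brightness of the spot, on each of the 3 control arrays, the ranks were averaged, and the 200 brightest were taken. LOC100136576, listed with the synonym hbb, was left out by the rule, which left 199 member probes of 198 genes, out of 25270 genes with a probe found in the table, since LOC106605899 has 2 probes. The signal of the control pools thus chose the members, and their brightness in those pools is a description that supports nothing else.

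A locus number is given by NCBI to a gene model that has no published symbol, and it says nothing of what the gene does. In bony fish the HK makes blood cells and houses lymphoid tissue, so that red cells, granulocytes and lymphocytes lie beside steroid-producing interrenal cells. Red cells of fish keep a nucleus and RNA, so haemoglobin transcripts are among the most abundant of this organ. Haemoglobin carries oxygen and is built of alpha and beta chains, ferritin stores iron in a shell of heavy and light chains, and beta-2-microglobulin is the light chain of MHC class I molecules. The ancestor of salmonids doubled its whole genome, so many salmon genes exist as similar copies.

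The samples were HK pools of juvenile fish fed for 133 days either a basal diet without the additive (control) or the same kind of diet with 0.15% of AQUOLIVE, an extract of olive fruit rich in triterpenic acids and polyphenols. Each diet gave 3 pools of 6 fish, with each pool on its own one-color Agilent array, so that the spread between arrays is a spread between pools. Every pool of a diet drew 1 fish from each of the same 6 tanks, so the pools share tanks and the spread between single fish is lost in them. All fish were unvaccinated juveniles from a single farm and had passed the same hydrogen peroxide and formaldehyde baths before the trial. Each array was a slide of its own. The slides of the control pools had consecutive serial numbers, apart from those of the AQUOLIVE pools, and were scanned before them. The diets thus cannot be told apart from the slide run or from the order of scanning. Where the values of a diet are listed, they stand in the order of pools 1, 2 and 3.

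The arrays differed in quality in ways that bear on the brightest spots. The share of probes well above background ran from 42.5% in control pool 3 to 76.0% in AQUOLIVE pool 2. Spike-ins, RNAs added to each sample at set doses, gave a slope of 0.854 ± 0.0401 (SD, n = 3) with the control diet, against 1.07 ± 0.0181 (SD, n = 3) with AQUOLIVE. Of 16 marker genes of blood-forming and immune cells, 8 had a probe by symbol, and all 8 were well above background on all 6 arrays. Precision is limited by the small number of arrays, and 3 pools against 3 cannot reach an exact permutation p below 0.1.

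The members were a bright and compact class of genes. Their mean rank on the control arrays ran from 1 to 464.67 among all probes, and 425 probes lay in this range. Of these, 200 had a locus number, 130 had a symbol and 95 were not found in the gene table. The last member, LOC106584449, had a mean control rank of 464.67, and its processed signal in the control pools was 19904, 24611 and 7143. The first probe outside the limit, LOC100196045, had a mean rank of 465.33 and a processed signal of 25054, 28615 and 5764 in the same pools. The choice thus falls in a dense stretch of signals, with no gap between the probes inside and outside the limit.

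The members held 22.5%, 21.2% and 22.6% of the summed processed signal in the control pools, and 26.7%, 24.5% and 26.9% in the AQUOLIVE pools. Their share was higher in every AQUOLIVE pool than in every control pool, on a scale that had not been normalized between arrays. When the same number of probes was chosen on the AQUOLIVE arrays, 162 were members, which is 81.4% of each list. On the AQUOLIVE arrays 72 members had a better mean rank than on the control arrays and 127 a worse one. Since the control ranks chose the members, the rule itself favours worse ranks on other arrays, and these counts say nothing of the diet. Only 2 members fell beyond a mean AQUOLIVE rank of 1000.

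All 199 member probes belonged to protein-coding genes, as did all 7298 eligible probes, and 192 matched a predicted (XM) and 7 a curated (NM) record. The member genes were short. Their median gene span was 5226.5 bases in the Ssal_v3.1 assembly, against 11100.5 bases over the 7270 genes of the eligible probes. A span under 10000 bases was found for 75.3% of member genes and for 46.3% of eligible genes. The member genes that were placed lay on 29 chromosomes (6 were unplaced), most often on chromosome 3 (21 genes, 10.6% against 5.19% of eligible genes) and chromosome 14 (18 genes, 9.09% against 4.65%). These shares were not tested.

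Some member genes were close neighbours. Of the 198 genes, 26 lay within 5 genes of another member gene in the gene table, in 8 blocks, of which 2 surround annotated haemoglobin genes and 6 are pairs. The block on chromosome 3 holds 8 members among the genes LOC100136576 (hbb), LOC100136584 and LOC101448011 (both hbb1), and the block on chromosome 6 holds 6 members around hba. From the first to the last member, 9 of 15 genes on chromosome 3 had a probe, of which 8 were members and the other was hbb. On chromosome 6, 7 of 14 genes had a probe, of which 6 were members and the other was hba. The table names no product for these 14 members, so they are called members of the haemoglobin loci here and not haemoglobin genes. Each had 1 transcript, and their gene spans ran from 555 to 1173 bases.

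The 6 brightest members all lay in the haemoglobin loci. LOC106601072, the brightest, had a processed signal of 416947, 376002 and 405896 in the control pools, and of 595026, 428626 and 593958 in the AQUOLIVE pools. Its spot in AQUOLIVE pool 2 was marked as an outlier. Of the 10 brightest members, 6 were in the loci, and of the 50 brightest, 9. The 14 members of the loci held 4.36%, 4.24% and 5.40% of the summed signal in the control pools, and 6.36%, 5.69% and 6.95% in the AQUOLIVE pools.

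After normalization, the members of these loci had unlike differences between the diets. Normalized values are log2 signals after a loess fit of each array to the mean of the control arrays, and a log2 FC is the mean of the AQUOLIVE pools minus that of the control pools. The 6 brightest members had a log2 FC between -1.04 and 0.26, with limma's Benjamini-Hochberg adjusted p between 0.281 and 0.887. Of these 6, 2 were lower in every AQUOLIVE pool with a value than in every control pool. Among the kept probes with all values, 15% were. Both of these 2, LOC106601072 and LOC106601051, had no value in AQUOLIVE pool 2, so the share of 15% is too low a comparison for them. The other 8 were higher in every AQUOLIVE pool with a value than in every control pool, where 14.7% of the kept probes with all values were, with a log2 FC between 0.77 and 1.64 and limma's adjusted p between 0.114 and 0.269. None passed an adjusted p of 0.05, and only 2 of the 8 had a value on all 6 arrays. The other 6 had no value in AQUOLIVE pool 2. Fewer values separate more easily, so the share of 14.7% is too low a comparison for these. The split at the 6 brightest was made after the values were seen, and the difference between these sets was not tested.

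**Figure D1:**
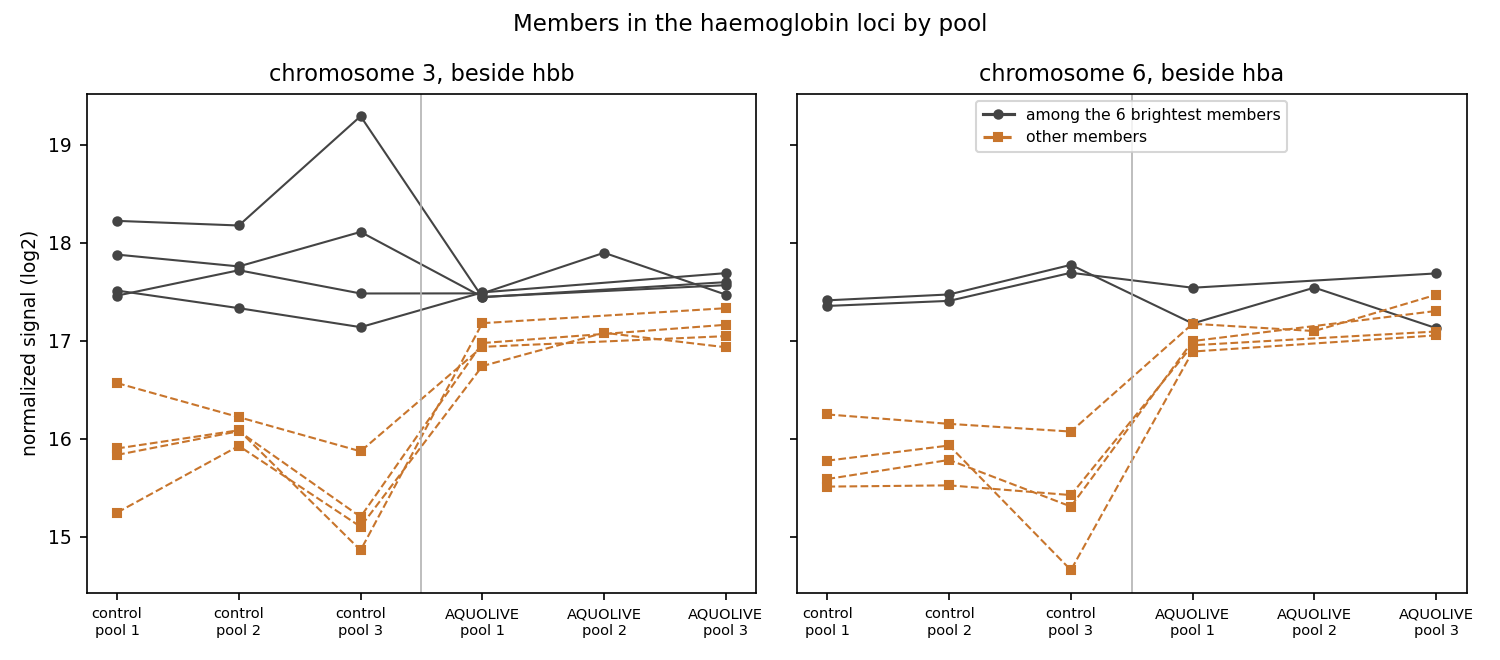
Normalized signal (log2) of the 14 members of the haemoglobin loci in the 6 pools, on chromosome 3 (left) and chromosome 6 (right), where each line joins the values of 1 probe and has no meaning of order between pools. The 8 dashed members sit between 14.7 and 16.6 in the control pools and between 16.7 and 17.5 in the AQUOLIVE pools, while the 6 solid ones lie between 17.1 and 19.3 in all pools.

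On chromosome 3, LOC106601076 had a normalized signal of 15.25, 15.93 and 15.10 in the control pools, and of 16.74, 17.08 and 16.93 in the AQUOLIVE pools. Its groups did not overlap, and the log2 FC was 1.49 ± 0.28 (SE, adjusted p = 0.129 by limma). Its neighbour LOC106601074 had 15.90, 16.09 and 14.86 in the control pools, and 17.18 and 17.33 in AQUOLIVE pools 1 and 3, with no value in pool 2. Control pool 3 was the lowest pool for both genes. On chromosome 6, LOC106607380 had 16.25, 16.15 and 16.07 in the control pools and 17.17, 17.10 and 17.47 in the AQUOLIVE pools, with a log2 FC of 1.09 ± 0.21 (SE, adjusted p = 0.129 by limma). LOC106607372 had 15.51, 15.52 and 15.43 in the control pools and 16.95 and 17.10 in AQUOLIVE pools 1 and 3, and its pools of a diet lay close together.

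The brightest member had a lower normalized signal in the AQUOLIVE pools. LOC106601072 had a normalized signal of 18.22, 18.18 and 19.29 in the control pools and of 17.45 and 17.60 in AQUOLIVE pools 1 and 3, a log2 FC of -1.04 ± 0.42 (SE, adjusted p = 0.281 by limma). The size of this difference depended on the processing, and its processed signal was higher in every AQUOLIVE pool. The log2 FC was -0.28 with 75th percentile scaling and -0.35 with normexp correction. Among the alternatives of scaling, background and outliers, only the deposited log2 values centred on the array median gave a positive value, 0.0029. LOC106601073 had 17.46, 17.72 and 17.48 in the control pools and 17.48, 17.90 and 17.47 in the AQUOLIVE pools, and these groups overlapped.

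Of the annotated haemoglobin genes of both loci, which are no members, only hba and LOC100136576 (hbb) had a probe. Both probes were also higher in every AQUOLIVE pool with a value than in every control pool. The same held for 14.7% of the kept probes with all values, and hba had no value in AQUOLIVE pool 2. The probe of hba had 15.79, 15.62 and 15.58 in the control pools and 16.48 and 16.63 in AQUOLIVE pools 1 and 3, a log2 FC of 0.90 ± 0.24 (SE, adjusted p = 0.177 by limma). The probe of LOC100136576 (hbb) had a log2 FC of 1.50 ± 0.40 (SE, adjusted p = 0.171 by limma). The red cell markers alas2, the first enzyme of haem synthesis in red cells, and rhag, a red cell membrane channel, had a summed linear signal of 39591 to 55798 in the control pools and of 40505 to 50954 in the AQUOLIVE pools, so that their groups overlapped. These were the 2 with a probe among the 4 red cell markers listed by symbol. Haemoglobin genes are red cell markers too, and the probes of hba and hbb given above did not overlap. Of the 9 marker lists examined, 2 had sums that did not overlap between the diets, each resting on 1 gene. Among the kept probes with all values, 29.7% did not overlap in either direction, so these 2 are a description only. The thrombocyte marker itga2b, an integrin chain, had 2084 to 2703 in the control pools and 1216 to 1463 in the AQUOLIVE pools. The stroma marker col1a1a, a collagen chain, had 210 to 1266 in the control pools and 1328 to 2515 in the AQUOLIVE pools. The part of other cell types in the differences of the members was not tested. In pooled tissue, more red cells and more RNA per red cell cannot be told apart.

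The 14 members of the loci spanned a narrower range on the AQUOLIVE arrays. From the dimmest to the brightest, the normalized signal spanned 2.98, 2.65 and 4.63 log2 units in the control pools, and 0.80, 0.82 and 0.76 in the AQUOLIVE pools, where pool 2 had a value for 4 of the 14. The ratio of the highest to the lowest processed signal was 7.90, 6.30 and 24.9 in the control pools and 2.06, 3.12 and 1.96 in the AQUOLIVE pools, outlier spots included. The highest processed signal of an array was 416947, 376002 and 405896 in the control pools, against 598875, 563794 and 597580 in the AQUOLIVE pools. The stated saturation value lay between 655783 and 675378, and no spot was marked as saturated. Over 50% of the highest signal of their array were 6, 6 and 1 members in the control pools, and 24, 13 and 18 members in the AQUOLIVE pools. The part of this upper end of the scale in the differences was not tested. The probes of similar gene copies may bind each other's cRNA, so the values of single genes in these loci are uncertain.

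**Figure D2:**
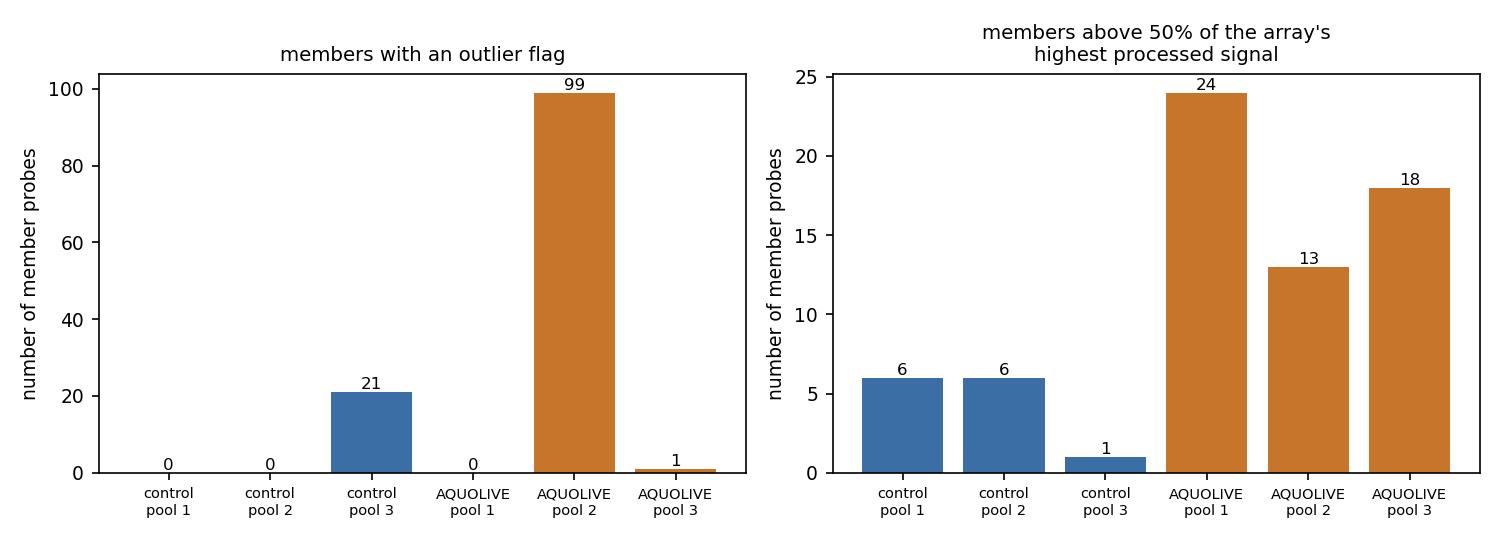
Number of the 199 member probes per pool (bars from 0) that carried an outlier flag (left) and that exceeded 50% of the highest processed signal of their array (right), with control pools in blue and AQUOLIVE pools in orange. AQUOLIVE pool 2 had 99 members with an outlier flag, and each AQUOLIVE pool had at least 13 members in the upper part of its scale, against at most 6 in a control pool.

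Outlier flags removed many member values. An outlier flag, for a non-uniform spot or a population outlier, was set for 99 members in AQUOLIVE pool 2. This is 49.7% of them against 0.604% of all probes on that array. It was set for 21 members in control pool 3, for 1 in AQUOLIVE pool 3 and for none in the other 3 pools. These values were set to missing, so that 92 members had a value on all 6 arrays, 100 had 2 AQUOLIVE values and 21 had 2 control values. In AQUOLIVE pool 2 the flags struck 37 of the 50 brightest members and 8 of the 49 dimmest. In control pool 3 they struck 9 of the 50 brightest and 6 of the 49 dimmest, and none of the 14 members of the haemoglobin loci. Every member kept at least 2 values per diet.

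After the loess fit, positive and negative differences were near equal in number across the members as a whole. The median log2 FC was -0.05, with quartiles of -0.42 and 0.50, and 96 members had a higher and 103 a lower mean in the AQUOLIVE pools. Over all 25826 probes kept for the test, the median was -0.02 with quartiles of -0.44 and 0.44. The 226 other probes of the same brightness had a median of -0.03. The loess fit draws the differences toward a centre of 0 at each brightness, so these medians and the even split are largely set by it. Without such a fit, the median of the members was 0.26 with 75th percentile scaling and 0.13 with the deposited log2 values. Members chosen on the AQUOLIVE arrays in place of the control arrays had a median of 0.33 and those chosen on all 6 arrays 0.07, so the sign of the median moved with the arrays that chose the probes.

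**Figure D3:**
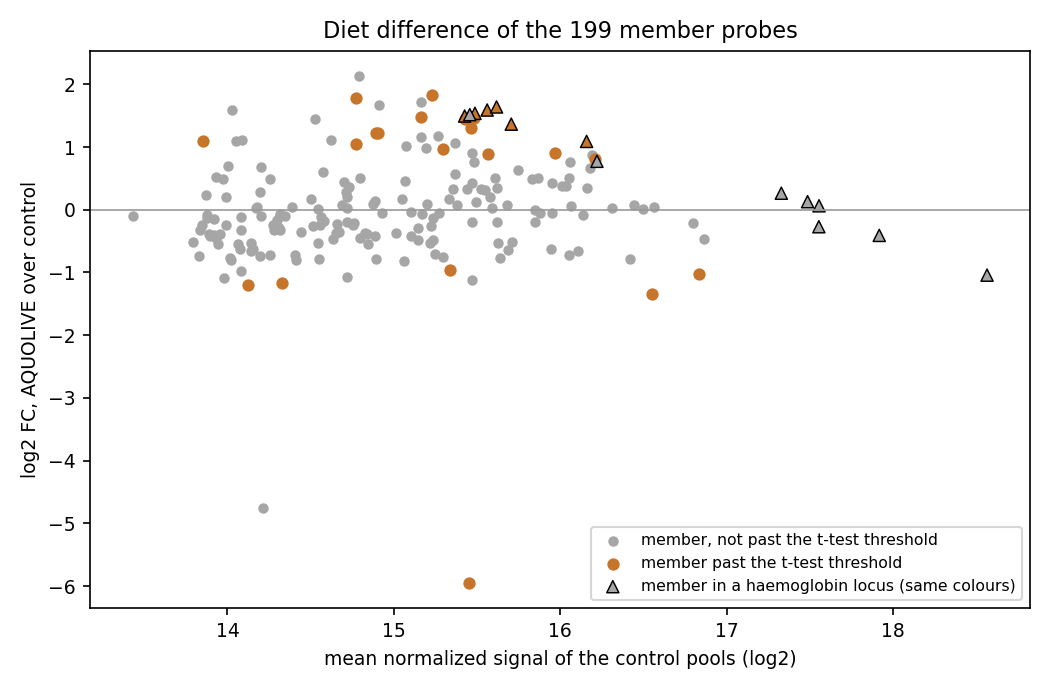
Log2 FC (AQUOLIVE over control) of the 199 member probes against their mean normalized control signal (log2), with members past the methods' t-test threshold in orange and members of the haemoglobin loci as triangles. The 6 brightest members, all triangles, lie between -1.04 and 0.26, and 2 members lie below -4.

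The spread between control pools was wider than that between AQUOLIVE pools. The median SD of the members was 0.297 in the control pools and 0.112 in the AQUOLIVE pools, against 0.447 and 0.235 over all kept probes. In 164 of the 199 members the control SD was the larger. The SD of the 100 members with 2 AQUOLIVE values rests on those 2.

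By limma, 0 members passed an adjusted p of 0.05, where 4 of 25826 kept probes did (0.0155%). The smallest adjusted p of a member was 0.0891, for LOC106587490. At an unadjusted p under 0.05, limma called 54 members, which is 27.1% against 18.1% of all kept probes, and 33 of these were higher (16.6% against 9.56%) and 21 lower (10.6% against 8.58%) in the AQUOLIVE pools. The methods' t-test called 26 members at a p under 0.05 without adjustment and a log2 FC of 0.8 or more in either direction. This is 13.1% against 9.05% of all kept probes. The methods state the limit on p alone. The limit of 0.8 was added here, as the lowest bound of the log2 FC intervals in the paper's results. Both limits together are called the methods' t-test threshold. After Benjamini-Hochberg adjustment over all kept probes, that test called 0 probes in all, and its smallest adjusted p for a member was 0.148.

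Of the 26 members past the methods' t-test threshold, 20 were higher (10.1% of members against 5.22% of kept probes) and 6 were lower (3.02% against 3.83%) in the AQUOLIVE pools. The 20 higher ones had a log2 FC between 0.80 and 1.84, and 6 of them lay in the haemoglobin loci. All 26 had diets that did not overlap, but only 8 of the 20 and 1 of the 6 had a value on all 6 arrays. Among the 92 members with a value on all 6 arrays, 48 had diets that did not overlap, which is 52.2% against 29.7% of the kept probes with all values. Of these, 17 were higher (18.5% against 14.7%) and 31 were lower (33.7% against 15%). The choice by control signal favours members that are lower in the AQUOLIVE pools. The median SD of all 199 members was also smaller than that of all kept probes. That of the 92 alone is not given, and the part of the SD in the separation was not tested. The shares of members called or without overlap are therefore given as a description only. These 92 members had a median log2 FC of -0.22 (33 higher and 59 lower), against 0.13 (63 higher and 44 lower) for the members with a missing value, so this count and that of the 26 cover members that differ. The count and its direction depended on the scaling: 38 did not overlap with 75th percentile scaling (27 higher and 11 lower), 12 with quantile normalization (11 and 1), 19 with the deposited log2 values (15 and 4) and 34 with normexp correction (15 and 19). The members past the methods' t-test threshold numbered 45 higher and 3 lower with 75th percentile scaling, 13 and 7 with quantile normalization and 15 and 8 with normexp correction. The counts under these other scalings are given without the share over all kept probes. They do not show whether the members moved more than the other probes.

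**Figure D4:**
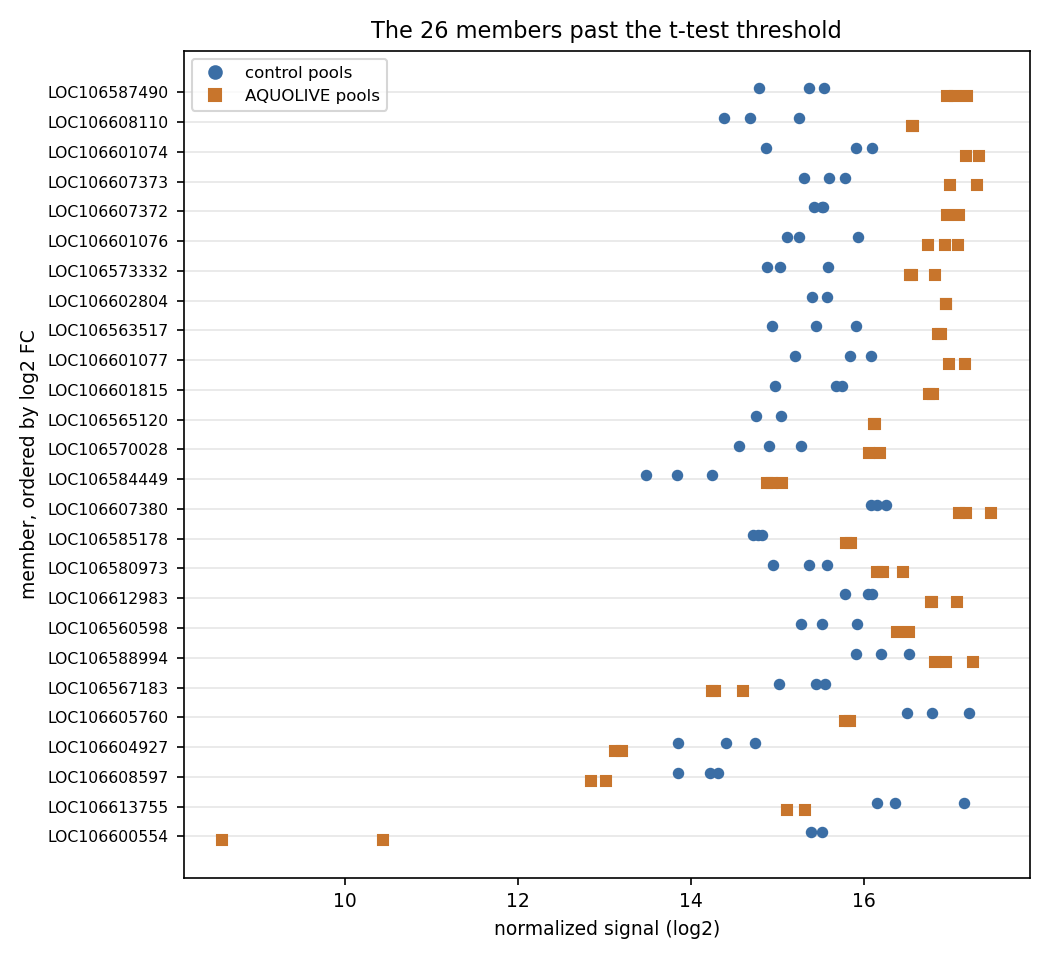
Normalized signal (log2) of each control pool (blue circles) and AQUOLIVE pool (orange squares) for the 26 members past the methods' t-test threshold, ordered by log2 FC, with missing values left out. The upper 20 have higher and the lower 6 have lower AQUOLIVE values, and LOC106600554 at the bottom lies at 10.44 and 8.58 against 15.51 and 15.39.

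The direction of the count by brightness differed within the members. Of the 50 brightest, 28 had a higher and 22 a lower mean in the AQUOLIVE pools, with a median log2 FC of 0.04. The next 50 had 33 higher and 17 lower and a median of 0.33. In the following 50 the median was -0.14, and among the 49 dimmest it was -0.25 with 15 higher and 34 lower. The upward and downward counts past the methods' t-test threshold were 4 and 3 among the 50 brightest and 11 and 1 among the next 50. They were 4 and 1 in the following 50 and 1 and 1 among the 49 dimmest. Over all kept probes of any brightness, 5.22% passed it upward and 3.83% downward. Since the control signal also enters the log2 FC, the values by brightness are a description and were not tested.

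The largest positive difference among members with all values and no overlap was that of LOC106587490, which lies on chromosome 26 next to a gene with the synonym FRIH, ferritin heavy chain. Its processed signal was 57023, 60168 and 17837 in the control pools, and 338672, 288701 and 363485 in the AQUOLIVE pools. After normalization it had 15.36, 15.54 and 14.79 in the control pools and 16.96, 17.05 and 17.18 in the AQUOLIVE pools. Every AQUOLIVE pool was above every control pool, and the log2 FC of 1.84 ± 0.26 (SE, adjusted p = 0.0891 by limma) is a 3.57-fold difference. Its mean rank went from 190.67 on the control arrays to 23 on the AQUOLIVE arrays.

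On chromosome 11, a pair of neighbouring members lay at a ferritin gene. LOC100194637, with the synonym frih, had 15.99, 16.18 and 15.68 in the control pools and 16.26, 16.66 and 16.23 in the AQUOLIVE pools, which did not overlap, and the log2 FC was 0.43 ± 0.24 (SE, adjusted p = 0.370 by limma). The adjacent gene LOC106563517 had 15.45, 15.91 and 14.94 in the control pools and 16.85 and 16.89 in AQUOLIVE pools 1 and 3, a log2 FC of 1.44 ± 0.35 (SE, adjusted p = 0.167 by limma). Neither passed limma's threshold. The table names no product for LOC106563517 or LOC106587490, whose gene spans were 2149 and 2153 bases.

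The 2 members listed as b2m, beta-2-microglobulin, were LOC100329141 and LOC100136933. Both had differences smaller than their SE, and neither passed a test. LOC100136933 had 15.05, 14.74 and 14.19 in the control pools and 14.46, 14.58 and 14.25 in the AQUOLIVE pools. Its log2 FC of -0.23 ± 0.28 (SE, adjusted p = 0.662 by limma) was within the spread of the pools. LOC100329141 had 2 values per diet and a log2 FC of -0.13 ± 0.28 (SE, adjusted p = 0.812 by limma). The signs of both changed with at least 1 other scaling.

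Beyond the haemoglobin and ferritin loci, the next largest positive difference with all values was that of LOC106573332 on chromosome 16. It had 14.87, 15.59 and 15.03 in the control pools and 16.55, 16.82 and 16.53 in the AQUOLIVE pools, with a log2 FC of 1.47 ± 0.26 (SE, adjusted p = 0.120 by limma). LOC106571007 on chromosome 15 had 15.12, 16.10 and 14.26 in the control pools and 16.28, 16.39 and 16.31 in the AQUOLIVE pools, so that control pool 2 came close to the AQUOLIVE values. LOC106584449, the last member by control rank, had 13.84, 14.24 and 13.48 in the control pools and 14.93, 15.05 and 14.88 in the AQUOLIVE pools. None of these passed an adjusted p of 0.05.

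The largest positive difference of any member was that of LOC106609995, at 2.13 ± 0.57 (SE, adjusted p = 0.179 by limma), which is named after its values were seen. It had 15.45, 15.20 and 13.72 in the control pools and 16.96 and 16.88 in AQUOLIVE pools 1 and 3. Control pool 3 was far below the other control pools, and the gene did not pass the methods' t-test threshold.

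Among the members that were lower in the AQUOLIVE pools with all values and no overlap, LOC106567183 on chromosome 13 was the only one past the methods' t-test threshold. It had 15.55, 15.01 and 15.44 in the control pools and 14.28, 14.60 and 14.24 in the AQUOLIVE pools and thus a log2 FC of -0.96 ± 0.24 (SE, adjusted p = 0.160 by limma). LOC106587480 on chromosome 26 had 13.56, 13.41 and 14.96 in the control pools and 12.81, 12.90 and 12.94 in the AQUOLIVE pools. LOC106570239 on chromosome 14 had 14.41, 14.10 and 15.65 in the control pools and 13.60, 13.72 and 13.60 in the AQUOLIVE pools. In both, control pool 3 lay more than 1 log2 unit above the other control pools. LOC106580961, LOC106577641 and LOC106600402 had a log2 FC of -0.81, -0.80 and -0.98, with limma's adjusted p of 0.380, 0.245 and 0.246.

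Outside the haemoglobin loci, 4 members completed the 10 brightest. LOC106605760 had 16.50, 16.79 and 17.21 in the control pools and 15.84 and 15.77 in AQUOLIVE pools 1 and 3, a log2 FC of -1.03 ± 0.30 (SE, adjusted p = 0.199 by limma) that passed the methods' t-test threshold. LOC106587505 had 16.77, 16.94 and 16.68 in the control pools and 16.54, 16.74 and 16.47 in the AQUOLIVE pools, which overlapped. LOC106586813 and LOC106578732 had a log2 FC of -0.46 ± 0.35 and 0.07 ± 0.33 (SE). For none of the 4 was the adjusted p under 0.05.

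A pair of members, named after their values were seen, set AQUOLIVE pools 1 and 3 apart from all other pools. LOC106600554 on chromosome 3 had a processed signal of 63394, 54240 and 41810 in the control pools, and of 2641, 98137 and 652 in the AQUOLIVE pools. LOC106563588 on chromosome 11 had 29233, 13503 and 18855 in the control pools and 581, 31736 and 115 in the AQUOLIVE pools. In both genes AQUOLIVE pool 2 was the highest of all 6 pools, so the diets overlapped. The ratio of the highest to the lowest AQUOLIVE pool was 150 for LOC106600554 and 277 for LOC106563588, and the third largest such ratio among the members was 3.34.

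The flag on AQUOLIVE pool 2 decides the value of LOC106600554. Its spots in control pool 3 and AQUOLIVE pool 2 were marked as outliers, and the log2 FC over the other values was -5.94 ± 0.69 (SE, adjusted p = 0.109 by limma), the most negative among the members. With those spots kept, its normalized signal was 15.47, 15.34 and 16.02 in the control pools and 10.42, 15.41 and 8.56 in the AQUOLIVE pools, and the log2 FC was -4.14 (adjusted p = 0.265 by limma) with overlapping groups. LOC106563588 had no flag, and its log2 FC was -4.75 ± 1.92 (SE, adjusted p = 0.269 by limma). With outlier spots kept, 72 of 25826 probes lay over 3 log2 units below the lowest control value in AQUOLIVE pools 1 and 3 and not more than 1 unit below it in pool 2, these 2 members among them. A difference of this shape is a difference between pools of 1 diet.

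**Figure D5:**
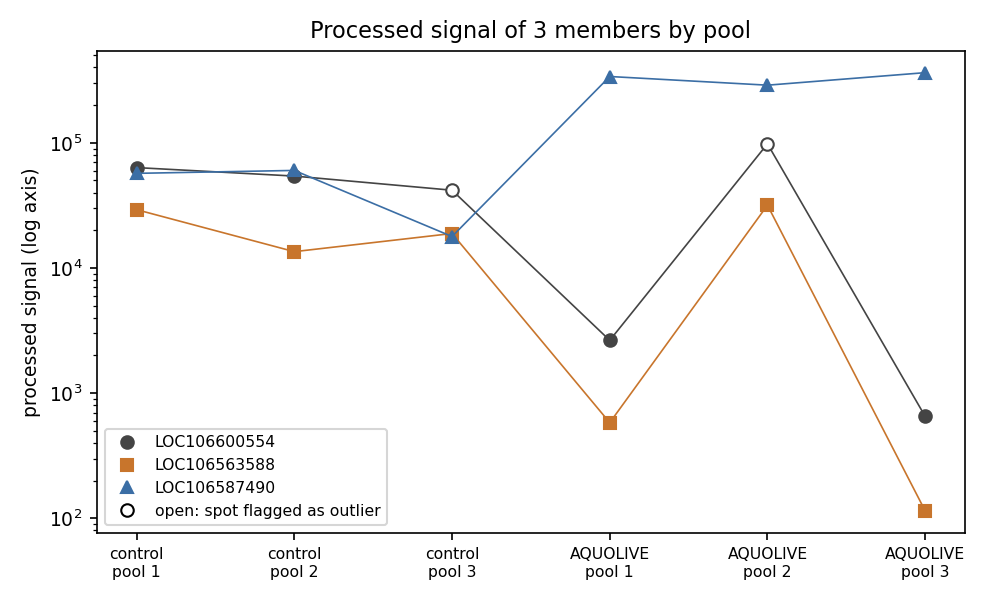
Processed signal (log axis) of LOC106600554, LOC106563588 and LOC106587490 in the 6 pools, where lines join the values of 1 probe and open symbols mark spots flagged as outliers. The first 2 lie between 115 and 2641 in AQUOLIVE pools 1 and 3 and are high in the other 4 pools, while LOC106587490 lies between 288701 and 363485 in the 3 AQUOLIVE pools.

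The member gene with 2 probes had a negative log2 FC by both, and the gap between them was not tested. The brighter probe of LOC106605899, with no value in AQUOLIVE pool 2, had a log2 FC of -0.66 ± 0.28 (SE, adjusted p = 0.294 by limma). The dimmer one had -0.11 ± 0.22 (SE, adjusted p = 0.786 by limma). The neighbouring members LOC106580840 and LOC106580841 on chromosome 20 had a log2 FC of -0.48 and -0.49, and LOC106587182 and LOC106587184 on chromosome 26 had 0.51 and -0.74. Neighbouring members thus did not always share a direction.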

How the data were processed

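The authors hybridized Cy3-labeled cRNA of 6 HK pools to one-color Agilent arrays and deposited the intensity of each spot from Feature Extraction software, background-subtracted and not scaled between arrays. The deposited log2 values per spot were checked and equal the log2 of that background-subtracted intensity. Probes were named through their RefSeq accession in the Ssal_v3.1 gene table, which holds symbols and synonyms but no descriptions, so that groups by function could not be formed. Member probes and gene lists were chosen with earlier results of these data known.

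From the deposited intensities, the log2 processed signal was taken in R 4.3.3, outlier spots were set to missing, and 25826 probes that reached the well-above-background flag on 3 or more of 6 arrays were kept. Each array was fitted by robust loess (span 0.3, 4 iterations) to the mean of the 3 control arrays, since the methods name a Lowess normalization. Repeated spots were averaged by probe. For the diet comparison, lmFit and eBayes of limma 3.58.1 were used, two-sided, with Benjamini-Hochberg adjustment over all kept probes, as well as the methods' t-test. Both were tested on simulated data. The rule for named members took the 10 brightest, every member past limma's threshold, the 6 largest rises and 6 largest falls among members with all values and no overlap, and those with a synonym, of which 1 is not reported here. Other scalings, filters, background corrections, choices of members and left-out pools were tried. The normexp correction used the median spot intensity. No sequence of the probes was used here.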

Additional observations from a re-analysis of the deposited data

How the results depend on the processing

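By limma, 0 members passed an adjusted p of 0.05 under all 20 alternatives. The 26 members past the methods' t-test threshold kept their direction under the 6 alternatives of scaling, background and outliers. They were chosen for large differences on the same arrays, so their kept direction is a description and no further support. The count past that threshold was 48 with 75th percentile scaling and 9 among the 92 members with no outlier flag. It was 8 to 29 when 1 pool was left out, with 10 without AQUOLIVE pool 1 and 8 without AQUOLIVE pool 3. The median log2 FC was 0.26 with 75th percentile scaling, 0.0767 with quantile normalization, 0.0800 with normexp correction, 0.13 with the deposited log2 values, 0.10 with no filter, 0.33 for members chosen on the AQUOLIVE arrays, 0.0738 for those chosen on all 6 arrays and -0.22 for members with no outlier flag. Leaving out 1 pool gave -0.12 to 0.03. The count of members with no overlap was 12 with quantile normalization, 19 with the deposited log2 values and 103 with outlier spots kept, and 49 to 118 with 1 pool left out, the highest without AQUOLIVE pool 2. With outlier spots kept or AQUOLIVE pool 2 left out, more members have all values. With any pool left out, fewer values have to separate. These counts thus do not compare with that of the main setting, and the cause of their rise was not tested. The counts of this paragraph are given without the share over all kept probes. Members outside the haemoglobin loci, a choice added after seeing the data like that by outlier flag, moved no count by over 1.5 times.

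The 8 dimmer members of the haemoglobin loci stayed higher and without overlap under all 6 alternatives of scaling, background and outliers, with a log2 FC of 0.52 to 2.55. These alternatives reuse the same arrays, and the 8 were set apart by their lower control signal after the values were seen. Their stability is thus a description and no further support, and the share over all kept probes is not given. Signs changed for 10 named members, among them LOC106601072, whose log2 FC was -1.04 in the main setting. With 75th percentile scaling the log2 FC was 0.29 for LOC106601051, 0.26 for LOC106607383, 0.22 for LOC106587505, 0.0673 for LOC106586813 and 0.34 for LOC100329141. With quantile normalization it was -0.58 for LOC106578732 and 0.21 for LOC100136933. With normexp correction it was 0.0720 for LOC106601051, 0.20 for LOC106607383 and 0.72 for LOC100136933. With the deposited log2 values it was 0.0029 for LOC106601072, 0.40 for LOC106601051, 0.35 for LOC106607383, 0.0108 for LOC106587505, 0.17 for LOC106586813, 0.0324 for LOC100329141 and 0.64 for LOC100136933. It was -0.0516 for LOC106607371 with outlier spots kept, -0.0418 for LOC106601073 with a filter on all 6 arrays and 0.0023 for LOC100329141 with no filter. With 1 pool left out it ran from -0.11 to 0.19 for LOC106601073 and from -0.18 to 0.23 for LOC106578732. The cause of these changes was not tested. The diets were fed in separate tanks, so the pool numbers give no pairing by tank. Deviations of same-numbered pools correlated at 0.21, -0.06 and 0.03 across probes, and those of unlike-numbered pools at -0.23 to 0.19. With 3 pools per diet, these correlations cannot decide whether the pools are paired. With the replicate number as a block, the t-test was a paired one of same-numbered pools, unlike that of the methods. At the same limits 14 members passed it, and 0 passed limma's threshold. These counts are given without the share over all kept probes.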
